A study of Mus musculus with 9 samples.

Results

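The DNA replication genes are the genes that license origins, unwind DNA, copy it and supply its nucleotides. Their 37 symbols were looked up in the annotation of the Mouse 430 2.0 array, and every probe set assigned to any of them was taken. The table used here gave probe sets for 36 of the 37 genes, and those 36 stood among 18193 measured genes. Chaf1a, a subunit of a histone chaperone, was not analysed here. The rule that picks the members is their function, and the list was drawn up with earlier results of these data known. The study profiled mouse embryos at embryonic day 16.5, with 3 arrays each of the condyle, the fossa and the whole body. The condyle is the rounded head of the lower jaw and the fossa is the socket of the skull in which it sits, and together they form the temporomandibular joint. Per the labels, embryos were taken at noon on the day counted from the copulation plug, and fresh frozen tissue was laser-capture microdissected. That entry is also given for the whole body. No group carries an allele or a treatment. Strain, sex, the number of embryos per array and any pooling are not given in the sources used here. The p-values below therefore measure the spread between these 9 arrays.

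Replication begins when the origin recognition complex, Cdc6 and Cdt1 load the MCM2-7 helicase onto DNA in G1. In S phase Mcm10, Cdc45 and GINS turn that helicase on, DNA polymerases copy the strands, and the clamp PCNA, loaded by the RFC complex, holds the polymerases to DNA. Many of these genes are transcribed late in G1 under the control of E2F factors, so their summed expression is widely read as a sign of cycling cells. In growing cartilage, dividing chondrocytes and their precursors lie next to cells that have left the cycle. A tissue sample averages over all of them, so fewer dividing cells and less of a transcript per cell cannot be told apart here.

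Promoter sequence of some of the genes is shown first, because it does not depend on the arrays. RefSeq promoter windows (build GRCm38.p6), which run from 250 bases before to 50 bases after a start, were at hand for 31 of the 37 genes. Capitals mark the E2F letters (TTTCCCGC, TTTCGCGC or TTTGGCGC, on either strand) in 4 of them. The fifth, Pcna, holds no such letters, and its capitals mark a CCAAT box, here on the opposite strand as ATTGG. Each stretch is 120 bases long, lies on the minus strand and is written 5′ to 3′. The stretches are chr1:128359716-128359835 (Mcm6), chr5:138171944-138172063 (Mcm7), chr5:151651189-151651308 (Rfc3), chrX:93632186-93632305 (Pola1) and chr2:132253191-132253310 (Pcna).
Mcm6: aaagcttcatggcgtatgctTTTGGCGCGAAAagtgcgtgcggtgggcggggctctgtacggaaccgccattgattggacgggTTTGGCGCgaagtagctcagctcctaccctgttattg
Mcm7: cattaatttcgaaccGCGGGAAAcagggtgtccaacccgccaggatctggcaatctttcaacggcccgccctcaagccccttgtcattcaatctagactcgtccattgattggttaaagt
Rfc3: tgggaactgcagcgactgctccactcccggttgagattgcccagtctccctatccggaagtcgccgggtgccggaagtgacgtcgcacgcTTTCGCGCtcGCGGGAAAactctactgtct
Pola1: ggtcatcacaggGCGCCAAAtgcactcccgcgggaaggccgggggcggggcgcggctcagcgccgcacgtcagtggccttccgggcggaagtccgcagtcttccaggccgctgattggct
Pcna: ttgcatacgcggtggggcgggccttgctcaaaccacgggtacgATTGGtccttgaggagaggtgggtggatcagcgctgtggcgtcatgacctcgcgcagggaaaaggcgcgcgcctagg

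Mcm6 carried 3 matches, of which one pair lies on opposite strands and overlaps by GCGC, and Rfc3 carried 2 matches on either side of its start. The E2F letters occurred in 12 of the 36 windows of these genes (33.3%) and in 1.84% of all 32851 promoter windows of the same length. Counted by gene, 12 of 31 held them: Orc1, Cdc6, Cdt1, Mcm3, Mcm5, Mcm6, Mcm7, Pola1, Pold1, Rfc3, Lig1 and Uhrf1. CCAAT was present in 61.1% of the members' windows against 37.4% of all windows, and the GC box GGGCGG in 72.2% against 35.7%. TTTGAA, the letters of the CHR element of genes expressed in mitosis, was present in 8.33% against 17.9%. All were searched on both strands, and in 1 window an E2F match overlapped one of the other motifs. The members' windows also had more G and C, a median of 59.8% against 52.7%, and how far that accounts for the shares was not tested. These matches describe letters and do not show binding. 8 of the 12 genes with the E2F letters and 11 of the 18 measured genes whose window lacked them were called higher in condyle than in fossa as deposited, by the test described below (background 16.8% of all genes). After quantile normalization 4 of the 12 and 1 of the 18 were called higher (background 3.80%). The median differences were close: 1.00 for the 12 and 0.89 for the 18 as deposited, and 0.34 and 0.33 after quantile normalization. The difference between the groups of genes was not tested.

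**Figure D1:**
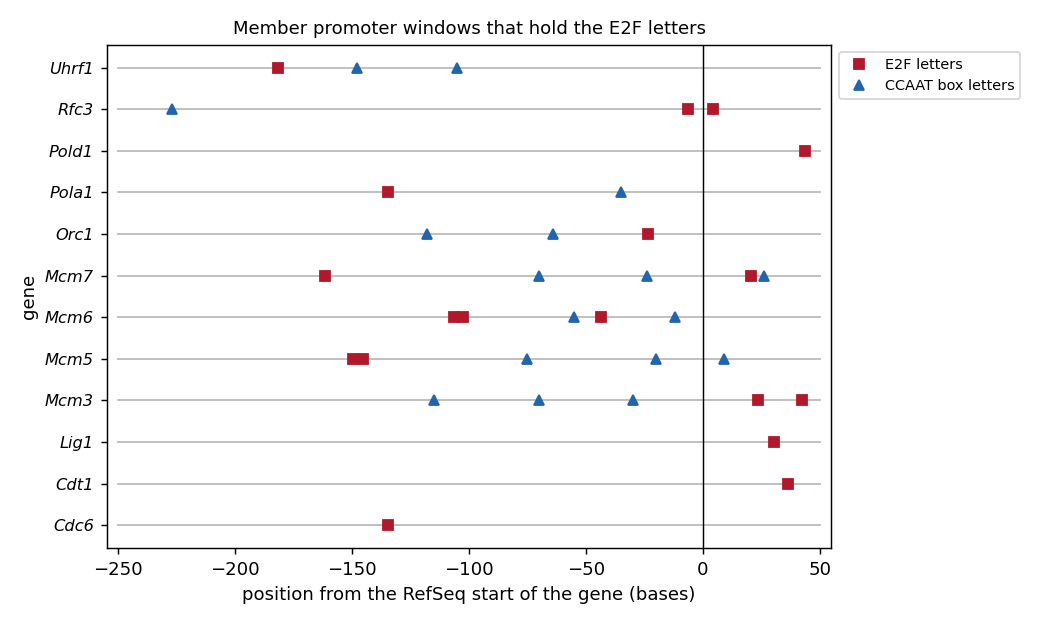
Position of each E2F match (squares) and CCAAT match (triangles) in the 12 member genes whose RefSeq window holds the E2F letters; the horizontal axis is the distance in bases from the start and each grey line is the window. Matches lie on both sides of the start, and those of Mcm6 and Mcm5 include overlapping pairs.

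Values are the deposited linear intensities on the log2 scale, and a gene is represented by its brightest probe set. A difference was called at an adjusted p under 0.05 (limma, Benjamini-Hochberg over all 18193 genes). An array's background limit was taken as its brightest signal among 27 control probe sets for bacterial transcripts, and from 30.3% (fossa array 1) to 46.9% of probe sets lay above it. The bright end of the arrays differed by tissue: the 90th percentile of log2 intensity was 7.53 to 7.60 in condyle, 6.78 to 6.94 in fossa and 7.11 to 7.40 in whole body. Counts of calls below are therefore given as deposited and again after quantile normalization, which gives all arrays the same distribution. Correlations between arrays ran from 0.918 to 0.979. As a check of the labels, 7 of 9 cartilage markers were higher in condyle and 7 of 9 in fossa than in whole body, and their summed log2 intensity was 13.45 to 14.40, 13.22 to 14.75 and 10.18 to 10.23. Runx2 and Bglap, markers of bone, were not analysed here.

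31 of the 36 measured genes lay above the background limit on all 9 arrays. Orc1 lay at background on all 9 and has only a bound in every tissue. Chaf1b was at background on all fossa and whole body arrays, Rfc3 on 2 fossa arrays, Pole on 2 whole body arrays, and Tyms on 2 fossa arrays and 1 whole body array. The median over the members was 7.38 to 7.55 on the condyle arrays, 6.16 to 6.81 on the fossa arrays and 6.86 to 7.27 on the whole body arrays, so the condyle lay highest and the fossa lowest as deposited, with no overlap.

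**Figure D2:**
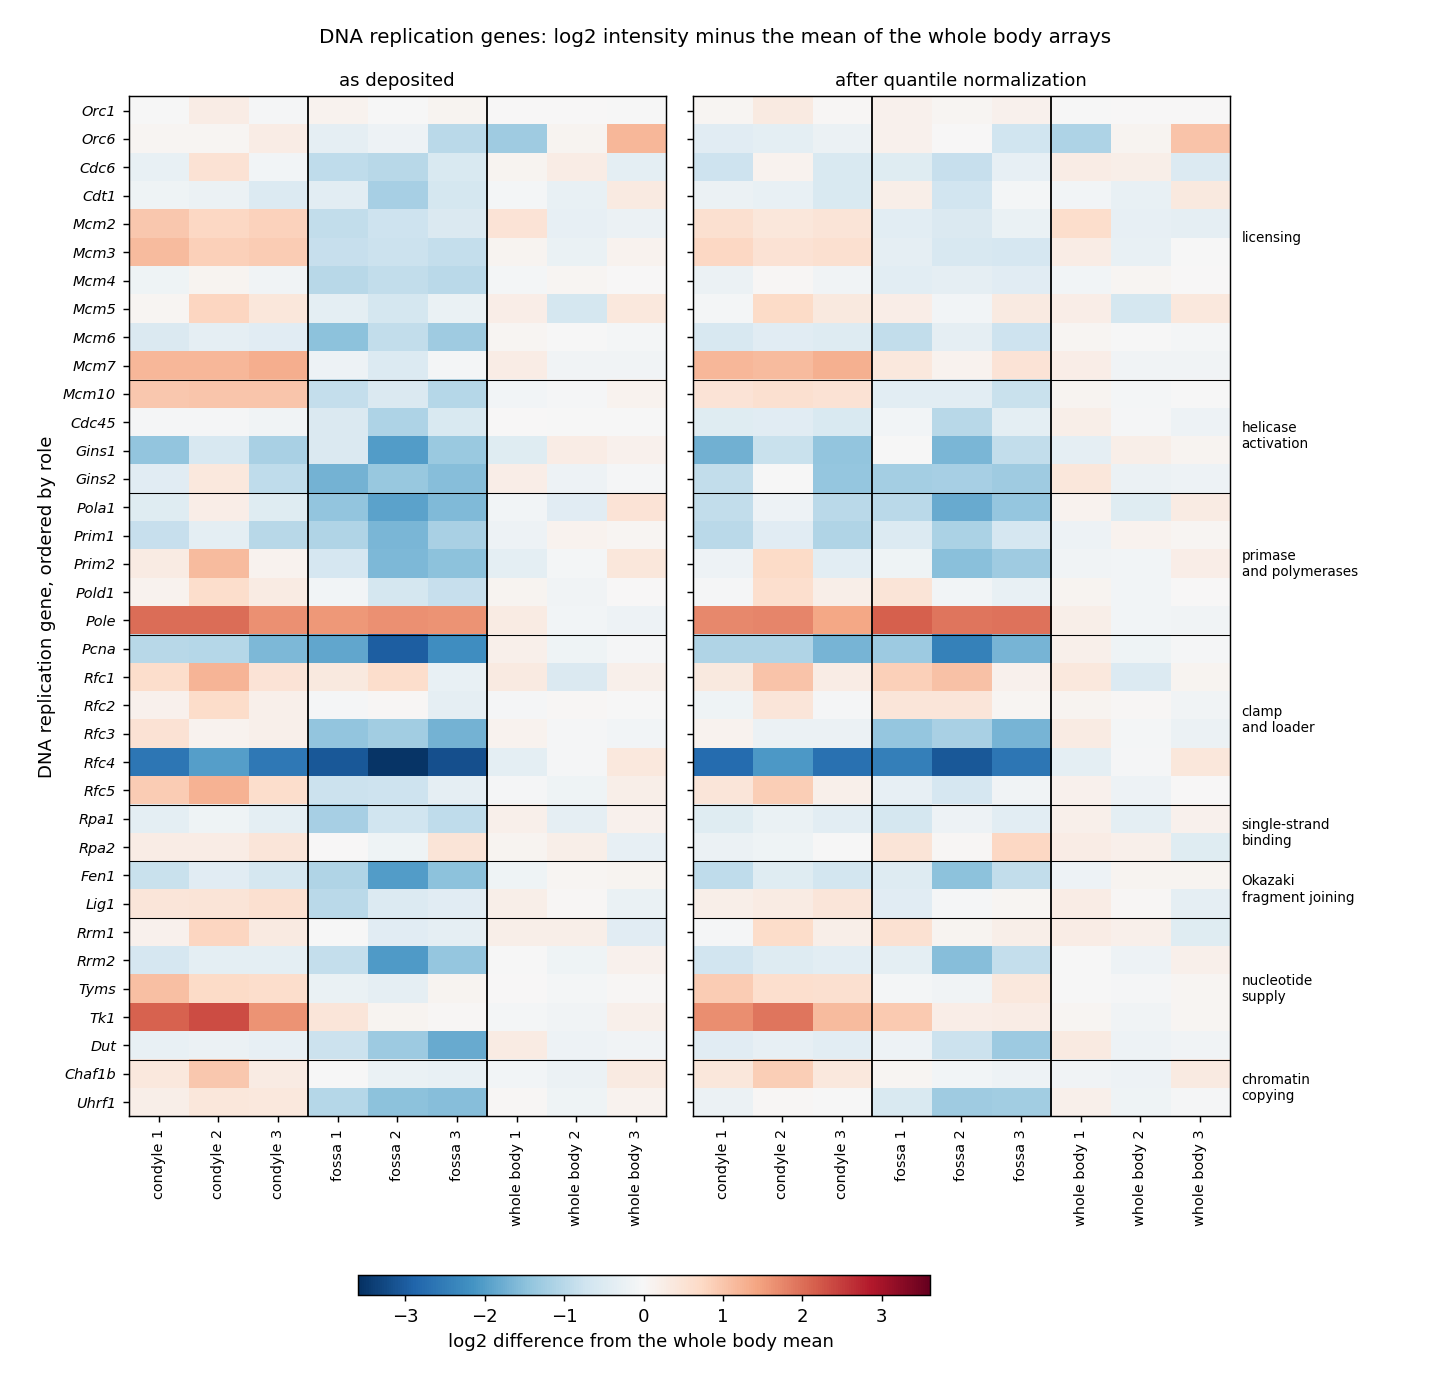
Log2 intensity of each of the 36 measured genes (rows, ordered by role) on each of the 9 arrays (columns), minus that gene's mean over the 3 whole body arrays, as deposited (left) and after quantile normalization (right). Rfc4 and Pcna are low in both joint tissues and Pole is high in both on either scale, whereas how blue the fossa columns are as a whole depends on the scale.

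Against the whole body, the condyle did not shift as a block. As deposited, 8 of the 36 genes were called higher (22.2%; background 9.34% of all genes and 18.0% of the 8455 genes with a mean log2 intensity of at least 4) and 2 lower (5.56%; background 3.84%). After quantile normalization 5 were called higher (13.9%; background 4.53%, and 8.56% of the genes with a mean of at least 4) and 2 lower (background 4.44%). Read against genes of that brightness, which hold 33 of the 36 members, the share of higher calls lay close to the background. The median difference of the members was 0.30 as deposited, against 0.39 for the genes with a mean of at least 4, and it turned to -0.08 after quantile normalization, against 0.09. Over all genes, higher calls made up 70.9% of calls as deposited, 50.5% after quantile normalization, 57.8% with each array centred on its median, and 13.4% with arrays centred on the median of the genes above the limit on all 9 arrays. Without whole body array 2, 5 members were called higher and 1 lower (978 and 492 over all genes, against 1699 and 699 with it). The lower count of members was also 1 without condyle array 1 or 3, fossa array 3, or whole body array 1 or 3. The all-gene lower count in those fits was 443 to 715. Genes of one complex lay on opposite sides, as given below.

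In the helicase, Mcm7 was the member that stood out in the condyle. Its log2 intensities were 11.94, 11.95 and 12.06 on the condyle arrays and 11.01, 10.62 and 10.61 on the whole body arrays. Every condyle array lay above every whole body array, and the difference was 1.23 ± 0.15 on the log2 scale (SE; 2.35-fold; limma adjusted p = 0.00312) and 1.21 after quantile normalization (adjusted p = 0.00337). Its call was lost when all its probe sets were averaged (adjusted p = 0.0639). Mcm3 gave 7.64, 7.37 and 7.42 in condyle and 6.60, 6.28 and 6.64 in whole body, a difference of 0.97 ± 0.12 (limma adjusted p = 0.00353) that missed the threshold after quantile normalization (0.61, adjusted p = 0.0516). Mcm2 gave 7.47, 7.26 and 7.34 against 7.01, 6.21 and 6.31 (0.85 ± 0.21, limma adjusted p = 0.0436; after quantile normalization 0.49, adjusted p = 0.306). The Mcm2 call was lost without any of the arrays other than whole body array 1 (limma adjusted p from 0.0547 to 0.125), and that of Mcm3 when its probe sets were averaged (adjusted p = 0.0706). The remaining 3 subunits of the same ring were not called: Mcm4 differed by -0.05, Mcm5 by 0.42 and Mcm6 by -0.41. So 3 of the 6 helicase subunits were called higher as deposited (background 9.34% of all genes and 18.0% of those with a mean of at least 4). After quantile normalization 1 of the 6 was (background 4.53% and 8.56%).

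Mcm10, which helps to turn the loaded helicase on, had the tightest condyle values of the set. They were 6.87, 6.89 and 6.88, against 5.79, 5.86 and 6.03 in whole body. The groups did not overlap, and the difference of 0.98 ± 0.13 (SE; limma adjusted p = 0.00497) was 0.53 after quantile normalization (adjusted p = 0.0422). Cdc45 and the GINS subunits Gins1 and Gins2, partners of the active helicase, were not called (-0.06, -1.06 and -0.32).

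Pole, the catalytic subunit of the leading-strand polymerase epsilon, was higher in the condyle. It gave 4.89, 4.89 and 4.54 in condyle and 3.19, 2.78 and 2.69 in whole body, where 2 arrays were not above background. The condyle was therefore at least 2.94-fold higher, the whole body being set to its background limit where it lay under it (fitted difference 1.89 ± 0.15, limma adjusted p = 0.000773; 1.63 after quantile normalization). Pola1 and Prim1, of the polymerase that starts each new strand, were not called (-0.21 and -0.72), nor were Prim2 (0.52) and Pold1 (0.36).

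Rfc4, a subunit of the clamp loader, showed the largest difference of any member and in the opposite direction. Condyle arrays gave 8.25, 8.89 and 8.29 and whole body arrays 10.52, 10.83 and 11.24. No condyle array came within 1 log2 unit of a whole body array, and the condyle was 5.23-fold lower (-2.39 ± 0.25 on the log2 scale, limma adjusted p = 0.00203; -2.50 after quantile normalization, adjusted p = 0.00363). The second Rfc4 probe set differed by -2.51. Rfc5, another subunit of the same loader, went the other way: 6.94, 7.29 and 6.66 in condyle against 5.98, 5.88 and 6.23 in whole body (0.93 ± 0.20, limma adjusted p = 0.0236; after quantile normalization 0.50, adjusted p = 0.199). The Rfc5 call was lost without condyle array 1 or 2 or whole body array 1 or 2 (limma adjusted p from 0.0574 to 0.0757). Rfc1, Rfc2 and Rfc3 were not called (0.78, 0.34 and 0.28).

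Pcna itself, the sliding clamp, gave 10.63, 10.59 and 10.01 in condyle and 11.81, 11.48 and 11.58 in whole body. All condyle arrays were lower, by 1.21 ± 0.29 on the log2 scale in the mean (2.31-fold; limma adjusted p = 0.0383; -1.28 and adjusted p = 0.0499 after quantile normalization). This call lies close to the threshold: it was lost with a common floor (adjusted p = 0.0613) and with every probe set tested (adjusted p = 0.0624). It was also lost without any of the arrays other than fossa arrays 1 and 2 (limma adjusted p from 0.0629 to 0.109).

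Tk1, the thymidine kinase of the salvage route, had the largest difference of those called higher. It gave 6.70, 6.91 and 6.19 in condyle and 4.51, 4.45 and 4.75 in whole body, without overlap. The condyle was 4.08-fold higher (2.03 ± 0.21 on the log2 scale, limma adjusted p = 0.00187; 1.58 and adjusted p = 0.0143 after quantile normalization). Tyms, which makes thymidylate, was at least 1.69-fold higher in the condyle by a dim probe set (4.28, 3.88 and 3.84 against 3.23, 3.14 and 3.24, where 1 whole body array lay at background; limma adjusted p = 0.0171). A brighter probe set shared by Tyms and a Tyms pseudogene, which cannot be given to either, read 7.93, 8.32 and 7.84 in condyle and 8.68, 8.31 and 8.64 in whole body, so the dim probe set is uncertain for Tyms. The ribonucleotide reductase subunits, which turn ribonucleotides into deoxyribonucleotides, were not called (Rrm1 0.42, Rrm2 -0.44), and neither was Uhrf1 (0.33), which carries DNA methylation through replication.

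**Figure D3:**
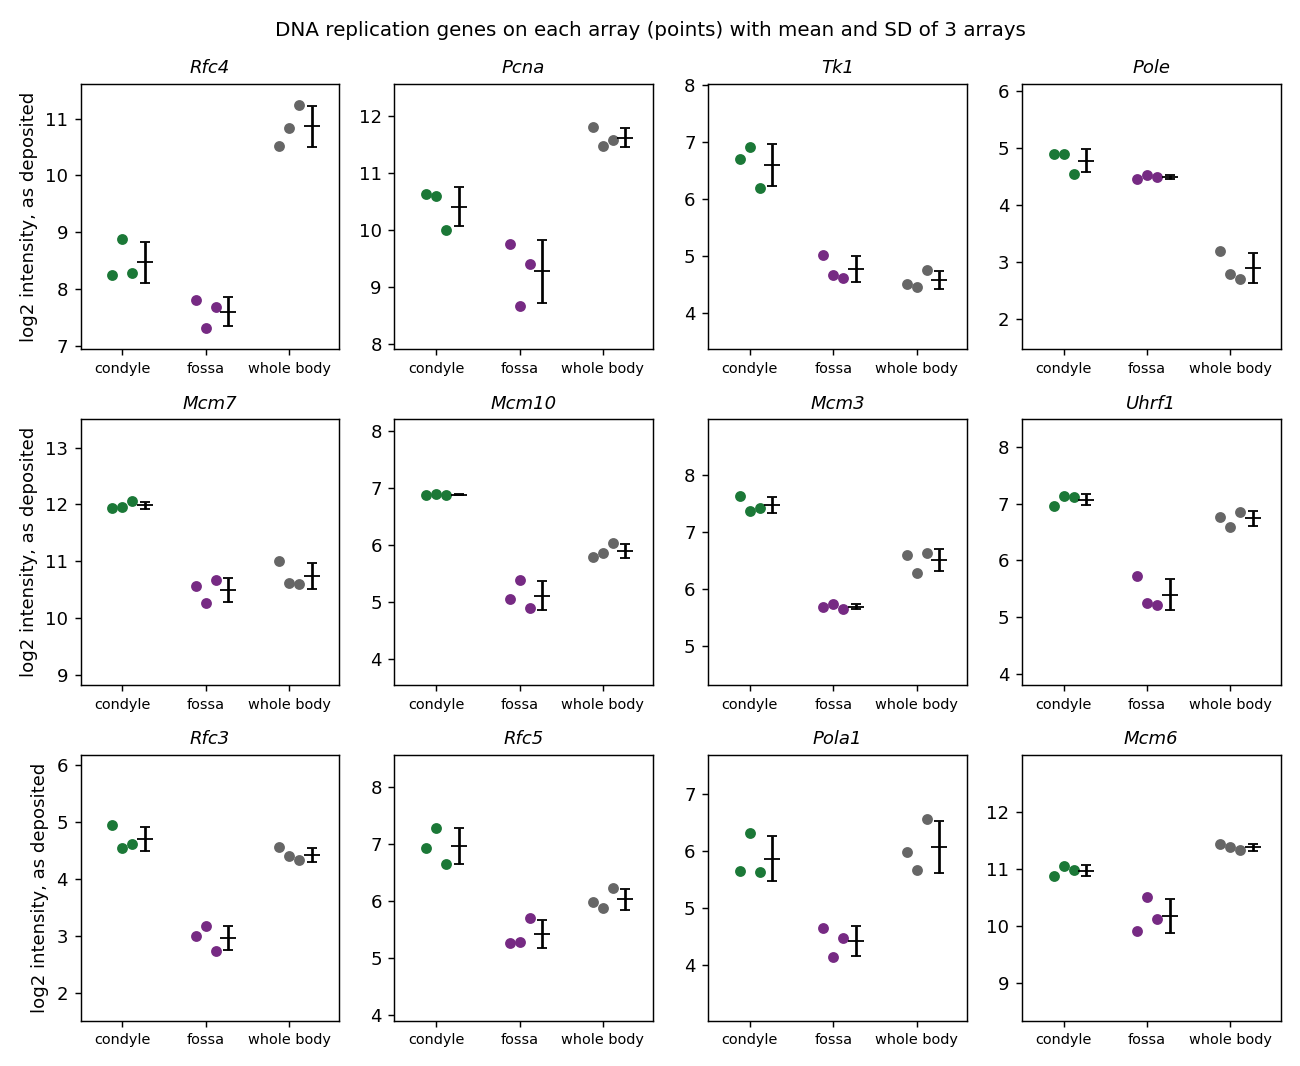
Log2 intensity as deposited of 12 member genes on each array (points, 3 per tissue), with the mean and the SD of the 3 arrays beside them; each panel has its own vertical range. Rfc4 and Pcna are lower in both joint tissues than in whole body, Tk1 and Mcm7 are higher in condyle than in fossa and whole body, and Pole is higher in both joint tissues.

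The fossa lay lower than the whole body for many of the genes. As deposited, 17 of the 36 were called lower (47.2%; background 15.6% of all genes and 21.8% of those with a mean of at least 4) and 1 higher (2.78%; background 3.99%). After quantile normalization 9 were called lower (25%; background 9.02%, and 11.6% of those with a mean of at least 4) and 1 higher (background 8.03%). The median difference of the members was -0.77 as deposited and -0.39 after quantile normalization, against -0.30 and 0.06 for the genes with a mean of at least 4. Higher calls made up 20.4% of all-gene calls as deposited, 47.1% after quantile normalization and 38.5% with arrays centred on the median of genes above the limit on all 9 arrays. With each array centred on its own median, 1481 genes were called higher and 1482 lower. The members' median stayed below 0 in all of these.

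Among licensing and helicase genes, Mcm4 and Mcm6 were lower in the fossa on both scales. Mcm6 gave 9.92, 10.51 and 10.12 in fossa and 11.45, 11.38 and 11.33 in whole body. That is 2.30-fold lower (-1.20 ± 0.15, limma adjusted p = 0.00219; -0.65 and adjusted p = 0.0231 after quantile normalization), with no overlap. Mcm4 gave 9.91, 10.01 and 9.92 against 10.84, 10.96 and 10.90 (-0.95 ± 0.08, limma adjusted p = 0.000625; -0.36 and adjusted p = 0.0232 after quantile normalization). Mcm3 was also called as deposited (5.69, 5.73 and 5.65 in fossa; -0.82, limma adjusted p = 0.00424) but missed the threshold after quantile normalization (adjusted p = 0.058). Mcm2 (-0.72), Mcm5 (-0.41) and Mcm7 (-0.25) were not called. The direction of the Mcm7 difference turned after quantile normalization (0.33).

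Of the helicase activators, Mcm10 gave 5.04, 5.38 and 4.88 in fossa, all under the whole body arrays (-0.80 ± 0.13, limma adjusted p = 0.00703; -0.52 and adjusted p = 0.0304 after quantile normalization). Gins2, a part of the active helicase, gave 4.60, 4.95 and 4.79 in fossa and 6.55, 6.12 and 6.27 in whole body. It was 2.90-fold lower as deposited (-1.53 ± 0.32, limma adjusted p = 0.0158) and missed the threshold after quantile normalization (adjusted p = 0.0542), as it did without fossa array 3 (limma adjusted p = 0.0503). Cdc45 was called as deposited (-0.72) and not after quantile normalization.

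The polymerases split. Pola1, the catalytic subunit of polymerase alpha, gave 4.65, 4.13 and 4.47 in fossa and 5.98, 5.67 and 6.56 in whole body, 3.15-fold lower (-1.65 ± 0.29, limma adjusted p = 0.0085; -1.39 and adjusted p = 0.0272 after quantile normalization). Pole was higher here as in the condyle: 4.45, 4.53 and 4.49 in fossa, at least 2.42-fold above the whole body (fitted difference 1.61 ± 0.15, limma adjusted p = 0.000869; 2.01 after quantile normalization). It was the one member called higher in the fossa. The condyle and fossa comparisons share the whole body arrays, so a low or high whole body value enters both.

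Rfc4 was again the lowest member, with 7.81, 7.32 and 7.69 in fossa, 9.57-fold below the whole body (-3.26 ± 0.25, limma adjusted p = 0.000365; -2.71 after quantile normalization). Its second probe set differed by -3.72. Pcna gave 9.75, 8.67 and 9.40 in fossa and was 5.09-fold lower (-2.35 ± 0.29, limma adjusted p = 0.00243; -1.80 and adjusted p = 0.0105 after quantile normalization). Rfc3, a further loader subunit, read 3.00, 3.17 and 2.74 in fossa and 4.57, 4.40 and 4.33 in whole body. Since 2 fossa arrays lay at background, it was at least 2.30-fold lower (limma adjusted p = 0.00112; adjusted p = 0.00385 after quantile normalization). A second, dimmer Rfc3 probe set differed by -0.35 and was not called (limma adjusted p = 0.522 over all probe sets). The clamp and 2 of its 5 loader subunits were thus called lower on both scales (background 15.6% of all genes as deposited and 9.02% after quantile normalization). Rfc1, Rfc2 and Rfc5 were not called (0.25, -0.11 and -0.62).

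Fen1, the nuclease that trims Okazaki fragments, gave 9.65, 8.71 and 9.24 in fossa and 10.56, 10.80 and 10.81 in whole body (-1.53 ± 0.23, limma adjusted p = 0.00528; -0.95 and adjusted p = 0.0493 after quantile normalization). Rrm2, the subunit of ribonucleotide reductase whose level follows the cycle, gave 10.75, 9.57 and 10.21 against 11.59, 11.45 and 11.77 (-1.43 ± 0.28, limma adjusted p = 0.0128), and missed the threshold after quantile normalization (adjusted p = 0.0756). Rrm1 was not called (-0.25). Uhrf1 gave 5.72, 5.26 and 5.22 against 6.77, 6.59 and 6.86, and was 2.53-fold lower (limma adjusted p = 0.00149; adjusted p = 0.0194 after quantile normalization). Prim1 (-1.31), Dut, which removes dUTP (-1.30), Rpa1, which coats single strands (-0.94), and the ligase Lig1 (-0.62) were called as deposited only. Fossa array 2 was the lowest of the 3 fossa arrays for 17 of the 36 genes, Pcna, Fen1 and Rrm2 among them. The same array had the lowest summed level of epithelial markers (log2 7.16, against 11.57 and 11.47). Condyle array 2 was the highest of the 3 condyle arrays for 24 of the 36 genes. Its summed bone (12.33), muscle (9.03), neuron (7.17) and macrophage (7.92) markers were the lowest of the 3. Such counts were not made over all genes. The part of these markers in the values was not tested. Without fossa array 2, 16 members were called lower (2294 over all genes, against 2833 with it).

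**Figure D4:**
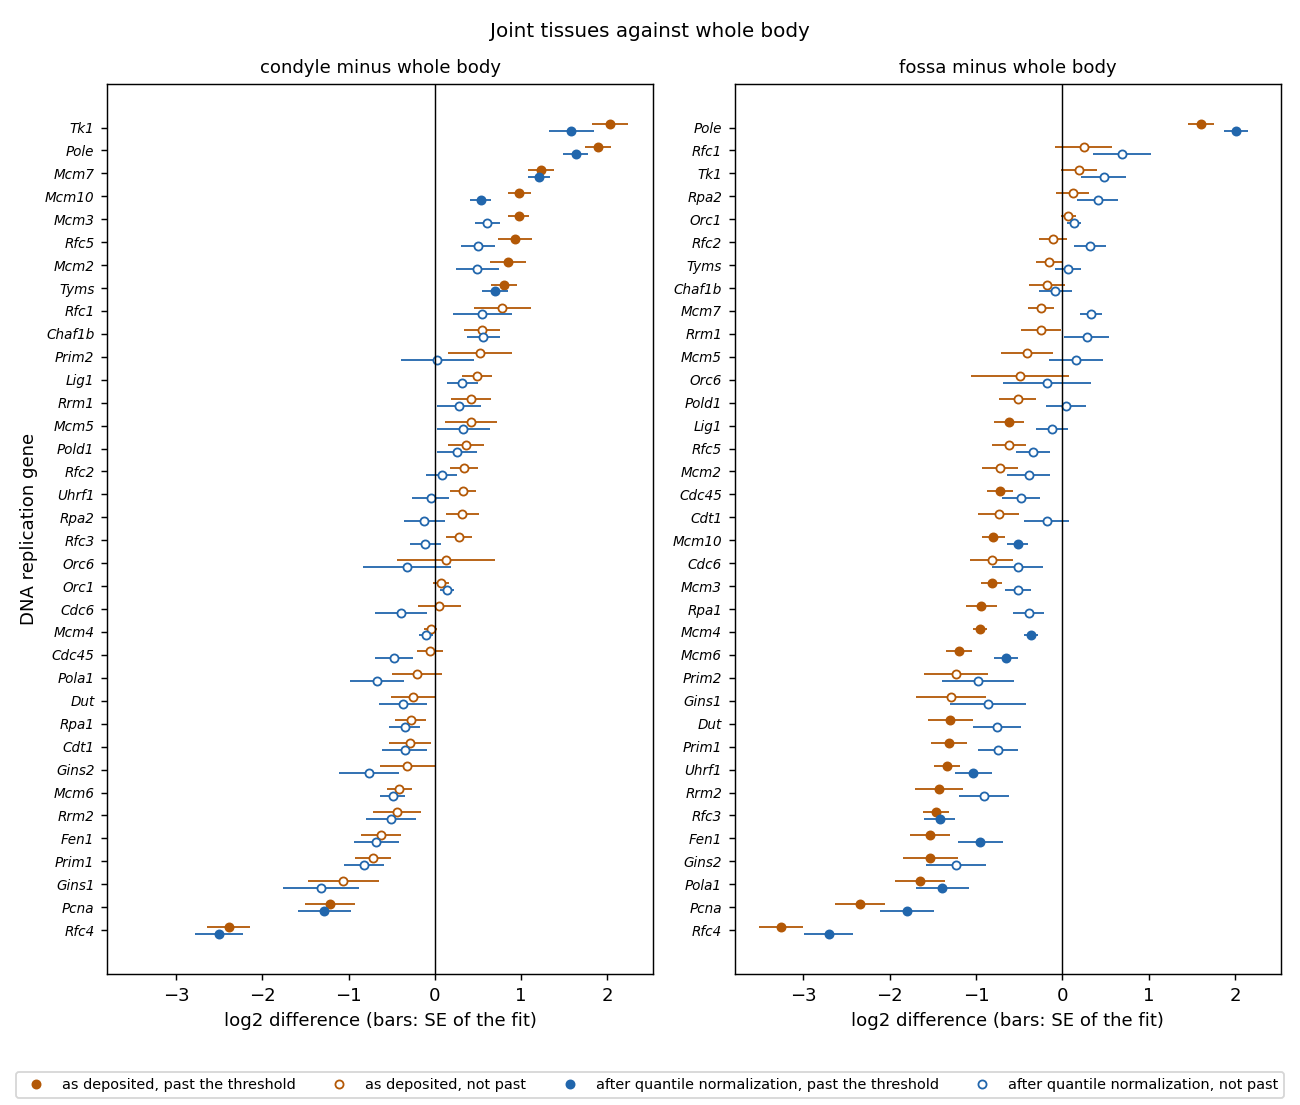
Log2 difference from whole body of each measured member, in condyle (left) and fossa (right), with the SE of the fit as bars, as deposited (orange) and after quantile normalization (blue); filled points passed the threshold. The condyle points lie on both sides of 0, and most fossa points lie below 0 and move toward it after quantile normalization.

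The whole body holds organs that the joint does not, and erythroid and fetal liver markers differed strongly. All 6 erythroid markers were lower in both joint tissues, with a summed log2 intensity of 8.01 to 9.46 in condyle, 6.60 to 8.87 in fossa and 13.83 to 13.90 in whole body. Of 7 fetal liver markers, 6 were lower in each joint tissue, and the sums of the 7 were 9.92 to 15.24, 5.80 to 15.07 and 16.10 to 16.29. The highest joint sums rested on the uncalled marker, Ttr, which read 15.23 on condyle array 3 and 15.06 on fossa array 3. On the condyle arrays Apoa1, Serpina1b and Ahsg lay at background, and on the fossa arrays Alb and Apoa1. Muscle markers summed to 9.03 to 11.91, 10.22 to 12.31 and 13.08 to 13.22, and epithelial markers to 10.82 to 12.25, 7.16 to 11.57 and 8.94 to 9.12. As deposited 1 of 6 muscle markers was called lower in each joint tissue. Of 6 epithelial markers 0 were called in condyle and 1 was called lower in fossa. Their part in the differences from whole body, those of Rfc4 and Pcna included, was not tested.

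The direct comparison of condyle and fossa needs no whole body array in its difference. As deposited, 22 of the 36 genes were called higher in the condyle (61.1%; background 16.8% of all genes and 27.2% of those with a mean of at least 4) and 0 lower (background 2.13%). At an unadjusted limma p under 0.05 the counts were 29 higher and 0 lower. Over all 18193 genes these were 5232 and 870, and over the 8455 with a mean of at least 4 they were 3923 and 67. After quantile normalization 5 were called higher (13.9%; background 3.80%, and 2.64% of those with a mean of at least 4) and 0 lower (background 2.67%). At an unadjusted limma p under 0.05 the counts on that scale were 13 and 1. Over all genes these were 2110 and 1780, and over those with a mean of at least 4 they were 923 and 684. Without condyle array 2 or fossa array 3, 14 members were called higher as deposited. The all-gene counts of higher calls also fell, from 3053 to 2055 and 2003. The condyle arrays all lay above the fossa arrays for 31 of 36 genes as deposited (background 33.9% of all genes and 48.9% of those with a mean of at least 4), and for 13 of 36 after quantile normalization (background 17.8% and 13.1%). The median difference was 0.89 as deposited, against 0.68 for the genes with a mean of at least 4, and 0.27 after quantile normalization, against 0.02. Higher calls made up 88.8% of all-gene calls as deposited, 58.8% after quantile normalization, 22.4% with arrays centred on their median, and 8.3% with arrays centred on the median of genes above the limit on all 9 arrays.

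A sign of RNA quality and markers of bone and cartilage stood beside this comparison. The log2 signal of the 3′ Gapdh control probe set minus that of the 5′ one, which is larger where transcripts are less complete, was 3.69, 4.97 and 5.31 on the fossa arrays, 5.33 to 6.86 on the condyle arrays and 5.34 to 6.52 on the whole body arrays, so every fossa array lay below all others. For Actb it was 4.79 to 6.60 in fossa, 6.52 to 6.71 in condyle and 5.74 to 6.57 in whole body. The 5 bone markers had a median condyle minus fossa difference of -1.31 as deposited and -1.85 after quantile normalization, and 0 of 5 were called on either scale by limma (1 lower at an unadjusted p under 0.05 on each). Dmp1, a gene of osteocytes, differed by -2.69 (limma adjusted p = 0.145). Sp7, of the same list, differed by 0.67 as deposited (limma adjusted p = 0.461) and by -0.03 after quantile normalization. The summed log2 intensity of the list was 12.33 to 14.53 in condyle and 12.84 to 14.69 in fossa, and none of the 5 lay at background in a whole group. Of 9 cartilage markers 1, Sox9, was called higher in condyle than in fossa on each scale and 0 were called lower. Its fitted difference was 2.32 as deposited (limma adjusted p = 0.00502) and 1.76 after quantile normalization (limma adjusted p = 0.0314). The median difference of the cartilage markers was -0.11 and -0.64. The part of RNA quality and of these markers in the differences was not tested.

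The 5 genes called on both scales were Mcm3, Mcm7, Mcm10, Rfc3 and Uhrf1. Mcm3, by the values given above, was 3.45-fold higher in condyle (1.79 ± 0.12, limma adjusted p = 0.000519), and the difference was 1.12 after quantile normalization (adjusted p = 0.00837). Mcm10 was 3.43-fold higher (1.78 ± 0.13, limma adjusted p = 0.00068; 1.05 and adjusted p = 0.0052 after quantile normalization). For both genes the 3 condyle arrays were above all whole body arrays and the 3 fossa arrays below them, so the whole body lay between the joint tissues. Mcm7 was 2.79-fold higher (1.48 ± 0.15, limma adjusted p = 0.00159; 0.88 and adjusted p = 0.0125 after quantile normalization). Rfc3 gave 4.95, 4.55 and 4.62 in condyle and was at least 2.79-fold higher there (limma adjusted p = 0.00112; adjusted p = 0.00965 after quantile normalization). A second, dimmer Rfc3 probe set differed by 0.37 and was not called (limma adjusted p = 0.515 over all probe sets). Uhrf1 gave 6.96, 7.14 and 7.11 in condyle and was 3.19-fold higher (1.67 ± 0.15, limma adjusted p = 0.00126; 0.98 and adjusted p = 0.0427 after quantile normalization). These 5 calls also held with arrays centred on the median of genes above the limit on all 9 arrays, with differences of 1.07, 0.77, 1.06, 1.02 and 0.96 for Mcm3, Mcm7, Mcm10, Rfc3 and Uhrf1.

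Further large differences were called as deposited and not after quantile normalization. Tk1 was 3.57-fold higher (1.84 ± 0.21, limma adjusted p = 0.00242; 1.10 and adjusted p = 0.056 after quantile normalization), and its fossa values of 5.02, 4.67 and 4.60 lay under all condyle values. Prim2, the larger primase subunit, gave 5.88, 6.70 and 5.71 in condyle and 4.97, 3.96 and 4.11 in fossa (1.75 ± 0.37, limma adjusted p = 0.02; adjusted p = 0.222 after quantile normalization). Its call was lost without condyle array 2 (limma adjusted p = 0.0504), fossa array 2 (0.053) or fossa array 3 (0.0628), and with its probe sets averaged (0.639). Rfc5 gave 5.26, 5.29 and 5.70 in fossa and was 2.93-fold higher in condyle (1.55 ± 0.20, limma adjusted p = 0.0036; 0.83 and adjusted p = 0.0633 after quantile normalization). Mcm2 gave 5.62, 5.77 and 5.99 in fossa and was 2.96-fold higher in condyle (1.56 ± 0.21, limma adjusted p = 0.00466; adjusted p = 0.0984 after quantile normalization). In these genes the groups were apart on the deposited scale and the smaller difference on the other scale did not pass.

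As deposited 5 of the 6 MCM2-7 subunits were called higher in condyle (background 16.8%, and 27.2% of genes with a mean of at least 4), and after quantile normalization 2 of 6 were (background 3.80% and 2.64%). The differences of the 6, called or not, were 0.79 to 1.79 as deposited and 0.16 to 1.12 after quantile normalization, and as deposited 7521 of the 8455 genes with a mean of at least 4 also had a difference above 0. By the brightest probe sets Mcm4 (0.90), Mcm6 (0.79) and Mcm5 (0.83, not called) had the smaller differences of the ring. After quantile normalization theirs were 0.26, 0.16 and 0.17, none of them called. As deposited, this order depended on the probe set. A dimmer Mcm4 probe set had means of 8.18 in condyle and 6.68 in fossa (limma adjusted p = 0.00255 over all probe sets). A dimmer Mcm6 probe set differed by 1.72 (limma adjusted p = 0.00476), and another, at background, by 0.04. The dimmer Mcm5 probe sets gave 0.89 and -0.19. Pcna was 2.20-fold higher in condyle as deposited (1.14 ± 0.29, limma adjusted p = 0.0374) and not called after quantile normalization (0.52, adjusted p = 0.406). Without any of the arrays other than condyle array 3 and fossa array 1, the Pcna call was lost (limma adjusted p from 0.0531 to 0.111). Rrm2 behaved likewise (0.99, limma adjusted p = 0.0479; 0.40 and adjusted p = 0.494 after quantile normalization), and its call was lost without any of the arrays other than fossa array 1 (limma adjusted p from 0.0594 to 0.121). Rrm1 was called on neither scale (0.67 and -0.01). Rfc4 was 0.87 higher in condyle and not called (limma adjusted p = 0.0513; adjusted p = 0.754 after quantile normalization). The difference of Pole between the joint tissues was 0.28 with an SE of 0.15 and was not called.

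**Figure D5:**
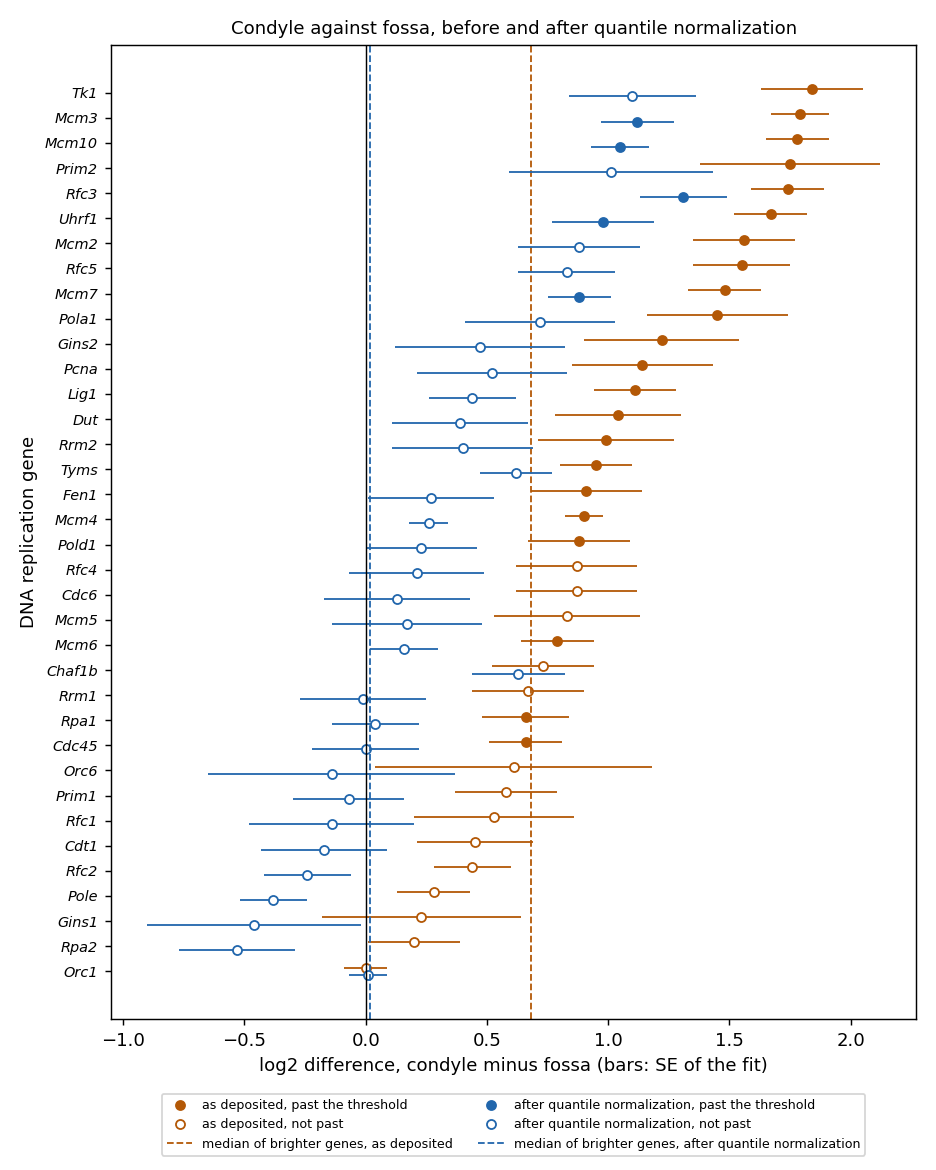
Log2 difference of condyle minus fossa for each measured member with the SE of the fit, as deposited (orange) and after quantile normalization (blue); filled points passed the threshold and dashed lines give the median of all genes with a mean log2 intensity of at least 4 on each scale. As deposited all 36 points lie at or above 0, and after quantile normalization 27 lie above 0 and 9 below, with Mcm3, Mcm7, Mcm10, Rfc3 and Uhrf1 filled on both scales.

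The probe set chosen matters for some members. 21 of the 36 genes had more than 1 probe set above the background limit on all arrays of some tissue, and the signs of these opposed each other in 9 genes for condyle against whole body and in 4 for each other comparison. For condyle against whole body the 9 were Cdt1, Fen1, Gins2, Mcm10, Mcm3, Mcm4, Mcm5, Rfc1 and Tyms. In Mcm4 the second probe set gave a mean of 8.18 in condyle and 7.19 in whole body (0.99, limma adjusted p = 0.0201 over all probe sets), where the brightest gave -0.05. In Mcm5 1 dim probe set gave 1.43 (limma adjusted p = 0.00515) and another -0.25, where the brightest gave 0.42. In Tyms a dim probe set gave -0.14, against 0.80 by the one used. Fen1 gave 0.73 by a dim probe set and -0.62 by the brightest, and Cdt1 0.98 and -0.29. In Gins2 these values were 0.66 and -0.32, and in Rfc1 -0.15 and 0.78. The other Mcm10 probe sets, near background, gave -0.03 and -0.02, and those of Mcm3 gave between -0.14 and 0.82, where the brightest gave 0.97. For fossa against whole body the signs opposed in Cdt1, Mcm5, Rfc1 and Rfc2, and Rfc1 gave -1.14 by a dimmer probe set and 0.25 by the brightest. Between condyle and fossa they opposed in Gins1, Mcm3, Mcm5 and Rfc2, with Gins1 at -0.41 and 0.23 and Rfc2 at 1.62, -0.10 and 0.44. In Mcm3 they were -0.03 by a dim probe set and 1.63, 1.86 and 1.79 by others. Several of the brightest probe sets are of a type that can match more than one transcript, so their values may include others.

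Other genes of the same machinery, taken from lists of the pathway, were counted beside the members. Over all 18193 genes, 3206 were higher and 1906 lower in condyle than in whole body as deposited at an unadjusted limma p under 0.05. In fossa against whole body these counts were 1448 and 4614. After quantile normalization they were 2222 and 2103 in condyle, and 2824 and 2921 in fossa. Those for condyle against fossa are given above. Of 41 further replisome and origin genes, 8 were called higher and 6 lower in condyle than in whole body, 1 higher and 21 lower in fossa, and 19 higher and 0 lower in condyle than in fossa (29 and 0 at an unadjusted limma p under 0.05). After quantile normalization these counts were 3 and 6, 3 and 11, and 6 and 0 (8 and 1 unadjusted). Set beside all genes, the share lower in fossa was 51.2% as deposited and 26.8% after quantile normalization (background 15.6% and 9.02%), and the share higher in condyle than in fossa was 46.3% and 14.6% (background 16.8% and 3.80%). Timeless, a fork protection protein, was higher in condyle than in whole body by 1.94 (limma adjusted p = 0.00348), and the kinase Cdc7, which fires origins, by 1.81 as deposited (limma adjusted p = 0.02; 0.069 after quantile normalization). Clspn, the checkpoint adaptor claspin, gave 5.43, 5.33 and 5.49 in condyle, 3.54, 3.47 and 3.32 in fossa and 3.65, 3.75 and 3.66 in whole body, so the condyle stood alone (1.73 against whole body, limma adjusted p = 5.57e-05, and 1.97 against fossa, limma adjusted p = 0.000174). Dnmt1, the maintenance DNA methyltransferase with which Uhrf1 works, was higher by 1.68 in condyle than in whole body. Pole4, a small subunit of polymerase epsilon, ran against Pole: 4.41, 5.30 and 5.20 in fossa and 7.12, 7.19 and 7.99 in whole body (-2.46, limma adjusted p = 0.00286). In fossa Dscc1, of an alternative clamp loader (-2.33), Rpa3, the small subunit of the single-strand binder (-2.29), and Rnaseh2b, of the enzyme that removes ribonucleotides from DNA (-1.77), were also lower than in whole body. Between the joint tissues Pole4 (2.04), Mcm9, a helicase relative (fitted difference 1.91), and Pold2, a subunit of polymerase delta (1.80), were higher in condyle as deposited. After quantile normalization the Pold2 call was lost (limma adjusted p = 0.0906).

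Of 10 further nucleotide supply genes, 1 was called higher and 0 lower in condyle (2 and 1 at an unadjusted limma p under 0.05), and 1 higher and 3 lower in fossa, than in whole body. Between the joint tissues 4 were higher in condyle and 0 lower (5 and 0 unadjusted). After quantile normalization the counts were 1 and 0 (2 and 1 unadjusted), 1 and 2, and 1 and 0 (3 and 0 unadjusted). The share lower in fossa than in whole body was 30% as deposited and 20% after quantile normalization (background 15.6% and 9.02%). The share higher in condyle than in fossa was 40% as deposited and 10% after quantile normalization (background 16.8% and 3.80%), and each gene is 10% of this list. Cad, the enzyme that opens pyrimidine synthesis, was higher than in whole body in condyle (1.65, limma adjusted p = 0.000291) and in fossa (0.50, limma adjusted p = 0.019). Dctpp1, which clears modified dCTP, was lower in fossa than in whole body (-1.86) and higher in condyle than in fossa (1.89), and the salvage kinase Dck was lower in fossa (-1.63).

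Of 19 genes that govern S phase entry, 1 was called higher and 4 lower in condyle, and 0 higher and 10 lower in fossa (0 and 13 at an unadjusted limma p under 0.05), than in whole body. Between the joint tissues 10 were higher and 0 lower in condyle (14 and 0 unadjusted). After quantile normalization the counts were 1 and 4, 0 and 6 (1 and 10 unadjusted), and 2 and 0 (6 and 0 unadjusted). The share lower in fossa was 52.6% as deposited and 31.6% after quantile normalization (background 15.6% and 9.02%), and the share higher in condyle than in fossa was 52.6% and 10.5% (background 16.8% and 3.80%). Tfdp2, a partner of E2F factors, gave 5.39, 4.54 and 4.82 in condyle, 2.58, 4.39 and 3.08 in fossa and 8.23, 8.77 and 8.72 in whole body. It was lower in condyle (-3.66; limma adjusted p = 0.00413) and at least 30.2-fold lower in fossa (limma adjusted p = 0.000668). Ccne2, a cyclin of S phase entry, was lower by -2.59 in condyle and -3.31 in fossa, E2f2 by -1.97 and -2.52, and Rb1, the retinoblastoma repressor of E2F, by -1.24 and -1.83. Cdc25a, the phosphatase that frees S phase kinases, was higher in condyle than in whole body (1.26, limma adjusted p = 0.00314). Between the joint tissues E2f3 was at least 2.81-fold higher in condyle as deposited (limma adjusted p = 0.0113; 0.0784 after quantile normalization), Tfdp1 was higher by 1.57, and Cdk2 lay at background on all fossa arrays (2.43, 2.41 and 2.41).

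Of 23 mitosis genes counted beside these, 7 were called higher and 0 lower in condyle (8 and 1 at an unadjusted limma p under 0.05), and 1 higher and 6 lower in fossa, than in whole body, and 11 were higher and 0 lower in condyle than in fossa (17 and 0 unadjusted). After quantile normalization these counts were 1 and 0 (7 and 2 unadjusted), 1 and 1, and 1 and 0 (9 and 0 unadjusted). The share lower in fossa than in whole body was 26.1% as deposited and 4.35% after quantile normalization (background 15.6% and 9.02%). The share higher in condyle than in whole body was 30.4% as deposited and 4.35% after quantile normalization (background 9.34% and 4.53%). The share higher than in fossa was 47.8% and 4.35% (background 16.8% and 3.80%), so on the second scale the share of adjusted calls lay close to the background. The differences themselves did not between condyle and fossa, where 19 of the 23 lay above 0 on that scale (8862 of all 18193 genes). The list's median difference there was 0.49, against 0.27 for the replication genes and 0.02 for the genes with a mean of at least 4. In condyle against whole body 16 of the 23 lay above 0 on that scale (9086 of all 18193 genes). Their median difference was 0.38, against -0.08 for the replication genes and 0.09 for the genes with a mean of at least 4.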

How the data were processed

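Total RNA of the 9 samples was labelled as biotinylated cRNA and hybridised to Affymetrix Mouse 430 2.0 arrays, per the labels' protocols. The authors deposited 1 table of linear intensity values for 45101 probe sets (3.25 to 67158.9). Its summarization and normalization are not given in the sources used here, and limma is named, without a version or a role, per the submitters' processing notes. Gene names came from the array's platform table: 34945 had 1 symbol, 932 several and 9160 none, and 64 controls were left out. The members and lists were chosen with earlier results of these data known. The brightest probe set by mean over the 9 arrays stood for each of 18193 genes. The mean log2 minimum of 4, for a brighter background, was set after the data were seen. Log2 values (floor of 1) were fitted with limma 3.58.1 in R 4.3.3, with 3 groups in 1 fit (6 residual degrees of freedom) and Benjamini-Hochberg adjustment over all genes at 0.05. No depth exists for arrays, and 3 per tissue limits the precision. The test was checked on simulated data. Where the dimmer group lay at background on some arrays, a fold is "at least", against the higher of the signal and the array's limit. Named members were, per comparison, the 8 called with the largest absolute difference, plus Pcna, Mcm2 to Mcm7, Rrm1, Rrm2 and Uhrf1. Of each pathway list, up to 4 called genes were named. Alternatives covered normalization, centring, floor, filter, probe set choice, samples fitted, array weights, the replicate block and leaving out each array. Promoters came from RefSeq and were searched in Python 3.11.15.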

Additional observations from a re-analysis of the deposited data

Results flagged for a closer look

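Mcm3 and Mcm10 were called higher in condyle and lower in fossa against the same whole body arrays, as deposited. That the condyle then lies above the fossa follows from how these genes were picked, so their condyle minus fossa differences, 1.79 for Mcm3 and 1.78 for Mcm10 (1.12 and 1.05 after quantile normalization), are a description and no further test. After quantile normalization both Mcm3 calls against whole body were lost (limma adjusted p = 0.0516 in condyle and 0.058 in fossa), and both Mcm10 calls held (limma adjusted p = 0.0422 and 0.0304).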

How the results depend on the processing

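Of 38 called values among the 60 of the named members, 18 kept direction and call under every alternative, among them Rfc4, Tk1, Pole and Mcm10 in condyle against whole body, 9 in fossa against whole body, and Mcm3, Mcm7, Mcm10, Rfc3 and Uhrf1 in condyle against fossa. Scaling had the widest effect. Quantile normalization gave 5 higher (8 as reported) in condyle against whole body, 9 lower (17) in fossa against whole body and 5 higher (22) in condyle against fossa, and together with the removal of fossa array 1 it gave 5, 11 and 6. Centring on the array median gave 12 in condyle against fossa. Centring on the median of genes above the limit on all 9 arrays, added after the data were seen, gave 5 higher and 10 lower (2) in condyle against whole body, and 8 higher and 1 lower (0) in condyle against fossa. Over all 18193 genes it gave 1264 higher and 8204 lower in condyle against whole body. In condyle against fossa it gave 607 higher and 6703 lower. The members' median in condyle against whole body turned from 0.30 to -0.08, -0.19 and -0.08 under quantile normalization, that centring, and quantile normalization without fossa array 1, and in condyle against fossa it moved from 0.89 to 0.27, 0.18 and 0.38, and to 0.47 with median centring. The 2 lower calls in condyle against whole body became 1 with a common floor or with every probe set tested, 4 with only the groups compared in the fit, and 6 with array weights. Over all genes the lower calls numbered 699 as reported, 488 with a common floor and 530 with every probe set tested. They numbered 628 with only the groups compared and 2059 with array weights. The mean of all probe sets turned Mcm4 in condyle against whole body from -0.05 to 0.47 (limma adjusted p = 0.0121). The cause of these changes was not tested.

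Leaving out each array in turn gave 5 to 7 higher and 1 to 3 lower calls in condyle against whole body, 1 to 1 higher and 15 to 19 lower in fossa against whole body, and 14 to 20 higher and 0 to 0 lower in condyle against fossa. The lowest counts came without whole body array 2 (5 higher in condyle against whole body) and without condyle array 2 or fossa array 3 (14 in condyle against fossa), and Pcna lost its call in condyle against whole body without most single arrays. The all-gene counts with 1 array left out were 978 to 1866 higher and 443 to 725 lower in condyle against whole body. Those for fossa against whole body were 1868 to 2676 lower, and those for condyle against fossa 1890 to 3047 higher. Deviations of same-numbered arrays from their group means gave correlations of -0.02, 0.09 and 0.03 for condyle and whole body. They were 0.08, -0.05 and 0.06 for fossa and whole body, and -0.33, -0.44 and 0.15 for condyle and fossa. With 3 arrays per group these values cannot decide whether the numbers pair the arrays. Ttr, for one, read 15.23 on condyle array 3 and 15.06 on fossa array 3. With the replicate number as a block, 1 member was lower in condyle against whole body and 13 were higher in condyle against fossa. That fit gave 495 lower and 2300 higher calls in these comparisons over all 18193 genes. Over all genes, calls in condyle against fossa numbered 3053 higher and 387 lower as deposited, 691 and 485 after quantile normalization, and 1355 and 4690 with median centring.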
